A study of Mus musculus with 8 samples.

Results

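Mmp9, Mmp12 and Mmp13 encode secreted matrix metalloproteinases, zinc enzymes that cut proteins of the extracellular matrix. They are 3 of the 2000 genes in a pooled table of 53528 single cells from Hepa1-6 tumours, and were taken by symbol to be followed across cell classes set by marker genes. Hepa1-6 is a mouse hepatoma cell line. The labels give 4 groups of tumours: WT with intraperitoneal PBS, WT with a PD1 antibody, Soat1 knockdown with PBS, and Soat1 knockdown with the PD1 antibody; the titles call the Soat1 tumours KO. Soat1 encodes an enzyme that esterifies cholesterol, and PD1 is an inhibitory receptor of T cells. Each group has a cDNA entry and an oligo entry, so the 8 entries were counted as 4 samples. Mouse strain, age, number of animals, the editing method and whether a line is 1 clone are not given in the sources used here. All groups carry the same tumour line.

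A final digit of 1 to 6 in each cell's name gave 6 sets, the smallest of 7569 and the largest of 11813 cells. Nothing ties the sets to the 4 groups, so the table was treated as 1 pooled sample, and no genotype or treatment was compared. What a set stands for is not given in the sources used here. No p-value is given, because cells of 1 sample are not replicates. Set 1 allowed unique molecular identifier (UMI) counts to be recovered, with 1001 to 261833 UMIs per cell and a median of 11098.5; for sets 2 to 6 only deposited log values were used. Levels in set 1 are summed UMIs of a gene per 1000000 summed UMIs of the class (CPM), with exact Poisson 95% intervals in brackets that cover counting error only.

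Matrix metalloproteinases are made as inactive precursors, opened by other proteases, and held in check by tissue inhibitors of metalloproteinases (Timps). Mmp12, macrophage metalloelastase, is known for degrading elastin and as a macrophage product. Mmp13, collagenase-3, cuts fibrillar collagen. Mmp9, gelatinase B, degrades denatured collagen and basement membrane collagen, and neutrophils store it in granules. In liver, macrophage Mmp12 and Mmp13 are known from the turnover of scar matrix.

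Mmp12 and Mmp13 lie close together on mouse chromosome 9, while Mmp9 lies on chromosome 2. In RefSeq, on GRCm38.p6, Mmp13 spans chr9:7272514-7283333, Mmp12 spans chr9:7344397-7360461, 61.1 kb further on, and Mmp9 spans chr2:164940326-164955850. The 250 bases before the annotated starts of Mmp12 and Mmp13 are shown because these genes were found in the same macrophages. Starts of 2 of the 3 members were matched in the RefSeq promoter table; Mmp9 was not. All windows are on the plus strand, 5′ to 3′, and capitals mark a match to the AP-1 motif TGANTCA, the binding motif of Fos and Jun proteins. The windows are chr9:7344147-7344396 and chr9:7347124-7347373 for the starts of Mmp12 and chr9:7272264-7272513 for that of Mmp13.

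Mmp12 start 1: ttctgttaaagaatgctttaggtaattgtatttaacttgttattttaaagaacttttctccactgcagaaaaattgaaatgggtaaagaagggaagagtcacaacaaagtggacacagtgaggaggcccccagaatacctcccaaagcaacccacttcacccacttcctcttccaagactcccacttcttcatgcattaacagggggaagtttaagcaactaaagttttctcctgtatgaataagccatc
Mmp12 start 2: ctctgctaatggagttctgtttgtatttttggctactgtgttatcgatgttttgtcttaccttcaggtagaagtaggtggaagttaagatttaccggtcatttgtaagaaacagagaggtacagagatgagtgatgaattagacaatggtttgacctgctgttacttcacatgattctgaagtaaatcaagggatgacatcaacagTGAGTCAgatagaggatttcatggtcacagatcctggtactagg
Mmp13 start 1: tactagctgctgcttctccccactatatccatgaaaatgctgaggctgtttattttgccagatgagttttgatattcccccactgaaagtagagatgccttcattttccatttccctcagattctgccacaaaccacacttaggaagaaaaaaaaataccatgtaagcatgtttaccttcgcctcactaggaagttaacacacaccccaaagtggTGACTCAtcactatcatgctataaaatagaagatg

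The AP-1 letters began 44 bases before the second Mmp12 start and 35 bases before the Mmp13 start. They were not found in the window of the first Mmp12 start. The window of the first Mmp12 start held the core GAGGAA, bound by the myeloid factor PU.1, on the minus strand 86 bases before the start, and the Mmp13 window held TATAAA 16 bases before its start. All motifs were searched on both strands, and a window counted once however many matches it held; the 4 matches named did not overlap each other. Among 32851 windows of the same length, 6.75% held the AP-1 letters, 12.4% the TATA letters and 23.3% the PU.1 core. These matches describe letters and are not evidence of binding.

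A cell entered a class when at least 2 of its markers had a deposited value above 1. The C1q macrophages were taken by C1qa, C1qb and C1qc, which encode the subunits of complement C1q. In all 6 sets there were 4051 C1q macrophages, 989 monocytes, 675 neutrophils, 415 dendritic cells, 755 fibroblasts and 31179 hepatoma cells, with 12646 T and NK cells as a class that should lack the 3 genes. A further 2255 cells (4.21%) passed more than 1 gate and were left out. Hepatoma transcripts were widespread: 92.7% of all cells, and 4212 of the 4678 cells that passed the C1q gate (90.0%), also met the hepatoma criterion. The hepatoma class therefore holds the cells that met that criterion and no other.

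The markers bore out most class names in set 1. Ptprc, the pan-leukocyte gene, was at 325 CPM in C1q macrophages and 867 CPM in T and NK cells, against 5.68 CPM in fibroblasts and 8.89 CPM in hepatoma cells. Lyz2, lysozyme of myeloid cells, was at 863 CPM in C1q macrophages and 3854 CPM in monocytes. It was far lower in neutrophils, at 54.8 CPM, and in dendritic cells, at 29.3 CPM, against 5.44 CPM in T and NK cells. Lyz2 thus bore out the names of neutrophils and dendritic cells less. In neutrophils Ptprc was at 126 CPM and the albumin gene Alb at 2556 CPM, close to the 3531 CPM of Alb in hepatoma cells. The part of hepatocyte RNA in the neutrophil results was not tested.

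Mmp12 was mainly a C1q macrophage transcript. In the 643 C1q macrophages of set 1 it had 10312 UMIs, or 4051 CPM [3974 to 4130], and these cells held 66.3% of all 15554 Mmp12 UMIs of the set. A Mmp12 UMI was found in 71.9% of them, at a median depth of 2779 UMIs, and a single cell held up to 402. In T and NK cells, with a median depth of 4658 UMIs, the level was 26.2 CPM [22.8 to 30.0] and 9.13% of cells had a UMI. With each cell thinned to 1000 UMIs, the shares were 61.6% of C1q macrophages and 1.73% of T and NK cells.

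Monocytes came next for Mmp12 at 489 CPM [415 to 573], with a UMI in 25.6% of 90 cells. Their Mmp12 was uneven: 5 cells held 74.5% of the 153 UMIs. Dendritic cells (62.9 CPM, 15 UMIs), neutrophils (40.8 CPM, 35 UMIs), hepatoma cells (27.6 CPM, 4187 UMIs) and fibroblasts (14.2 CPM, 10 UMIs) lay far lower. The interval of dendritic cells [35.2 to 104] overlapped that of neutrophils [28.4 to 56.8], and the intervals of hepatoma cells [26.8 to 28.4] and fibroblasts [6.81 to 26.1] each overlapped that of T and NK cells. The share of hepatoma cells with a Mmp12 UMI was 24.7% at a median depth of 16674 UMIs, and 2.85% after thinning.

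Mmp13 followed the same order for its top classes. It had 4054 UMIs in C1q macrophages, or 1593 CPM [1544 to 1643], which was 75.1% of all 5395 Mmp13 UMIs of set 1. A UMI was found in 62.1% of the C1q macrophages, and in 48.4% after thinning. The monocyte level was 176 CPM [133 to 229], and 5 of the 90 monocytes held 98.2% of its 55 UMIs. Dendritic cells (12.6 CPM, 3 UMIs), fibroblasts (9.94 CPM, 7 UMIs), T and NK cells (8.04 CPM, 65 UMIs), neutrophils (7.0 CPM, 6 UMIs) and hepatoma cells (6.63 CPM, 1006 UMIs) were at similar low levels, with intervals that overlapped between neighbours in this order. The T and NK cells had a Mmp13 UMI in 3.78% of cells.

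Mmp9 had a different distribution, with neutrophils and C1q macrophages at the top. Neutrophils had 97 UMIs, or 113 CPM [91.8 to 138], and C1q macrophages had 252 UMIs, or 99.0 CPM [87.2 to 112]; the intervals overlapped. The transcripts were spread differently within the classes. A Mmp9 UMI was found in 34.9% of 152 neutrophils (binomial interval by Clopper-Pearson 27.3 to 43.0%), at a median depth of 1979.5 UMIs, with 1.83 UMIs per positive cell and at most 11. Among C1q macrophages only 24 cells, or 3.73%, had one, with 10.5 UMIs per positive cell and up to 69, and 5 cells held 69.8% of the UMIs. After thinning, the shares were 21.1% of neutrophils, 2.64% of C1q macrophages and 0.236% of T and NK cells.

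All other classes had Mmp9 at or below 9.94 CPM. Fibroblasts were at 9.94 CPM [3.99 to 20.5], monocytes at 9.60 CPM [1.98 to 28.0] and dendritic cells at 4.19 CPM [0.106 to 23.4], from 7, 3 and 1 UMIs. T and NK cells were at 1.73 CPM [0.946 to 2.90], with a UMI in 0.865% of cells, and hepatoma cells at 1.59 CPM [1.40 to 1.81]. The hepatoma cells still held 37.9% of all 639 Mmp9 UMIs of the set, spread over 191 of 6775 cells; the class had 151758424 UMIs of all genes, against 2545248 in C1q macrophages. Relative to neutrophils, Mmp9 was 11.8-fold [3.92 to 58.2] lower in monocytes, 11.4-fold [5.32 to 29.1] lower in fibroblasts and 65.4-fold [37.2 to 124] lower in T and NK cells.

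**Figure D1:**
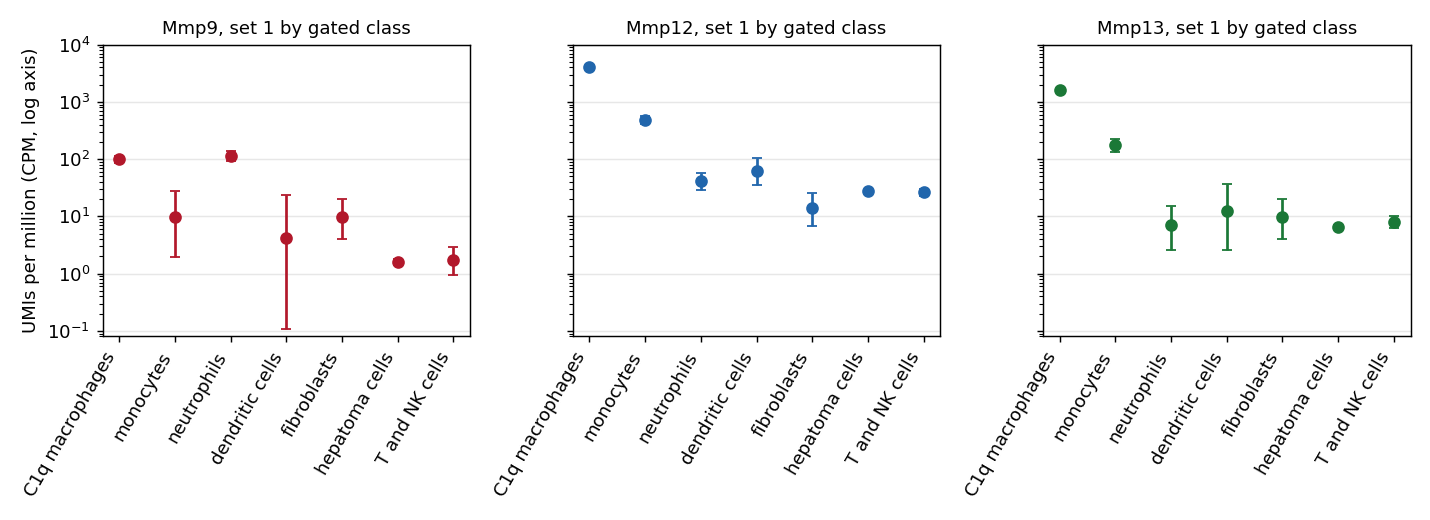
Levels (CPM) of Mmp9, Mmp12 and Mmp13 in each gated class of set 1 (log axis); points are class levels and bars exact Poisson 95% intervals for counting error only. Mmp12 and Mmp13 peak in C1q macrophages at 4051 and 1593 CPM, while Mmp9 is at 113 CPM in neutrophils and 99.0 CPM in C1q macrophages.

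Against each class, the difference was counted when the CPM ratio, with a pseudocount of 1 CPM, was at least 2-fold. Relative to monocytes, all 3 members were higher in C1q macrophages, as were 26.3% of the 1161 genes compared: Mmp9 by 10.3-fold [3.49 to 50.4], Mmp12 by 8.28-fold [7.06 to 9.78] and Mmp13 by 9.05-fold [6.94 to 12.04]. The Mmp9 fold was 2.98 without the 5 macrophages richest in it and 2.20 with all cells thinned to 1000 UMIs, and the Mmp13 fold was 15.4 after thinning. Relative to neutrophils, 2 of 3 were higher, against 24.7% of 1224 genes, and 0 of 3 were lower, against 34.0%. Mmp12 was 99.2-fold [71.3 to 142] and Mmp13 227-fold [104 to 620] above neutrophils, while the ratio for Mmp9 was 0.875 [0.689 to 1.12]. Without the 5 macrophages richest in Mmp9, its log2 ratio to neutrophils went from -0.19 to -1.86. After thinning, the Mmp13 fold over neutrophils was 91.2.

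Relative to dendritic cells, 3 of 3 were higher, against 30.5% of 1168 genes. The ratios were 64.4-fold [39.1 to 115] for Mmp12, 127-fold [43.3 to 615] for Mmp13 and 23.6-fold [4.20 to 937] for Mmp9, the last resting on 1 UMI in dendritic cells. The Mmp12 and Mmp13 folds were 19.3 and 74.5 after thinning, and that of Mmp9 was 6.07 without the 5 richest macrophages. Relative to fibroblasts, 3 of 3 were higher, against 26.3% of 1417 genes, by 285-fold [155 to 595] for Mmp12, 160-fold [77.7 to 399] for Mmp13 and 9.97-fold [4.77 to 25.0] for Mmp9; the Mmp9 fold was 5.86 after thinning and 2.88 without the 5 richest macrophages. Relative to hepatoma cells, 3 of 3 were higher, against 21.1% of 1934 genes. Mmp12 was 147-fold [142 to 152] higher, Mmp13 240-fold [224 to 258] and Mmp9 62.1-fold [51.8 to 74.4]. At the equal depth of 1000 UMIs these folds were 33.8, 79.2 and 24.7, and that of Mmp9 was 12.2 without the 5 richest macrophages. The median log2 ratio of all genes compared ran from -0.48 (over neutrophils) to 0.26 (over monocytes).

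The class with the highest mean recurred across the sets, while the order below it did not. The mean deposited value of Mmp12 (natural log scale) in C1q macrophages of sets 1 to 6 was 2.48, 2.68, 2.56, 2.50, 2.84 and 2.52. That of monocytes was 0.59, 0.41, 0.46, 0.65, 0.38 and 0.37, so the ranges did not overlap. Neutrophils ranged from 0.12 to 0.46 and dendritic cells from 0.15 to 0.62, and fibroblasts, hepatoma cells and T and NK cells stayed between 0.06 and 0.32. In set 5 the dendritic cell mean was above that of monocytes. The Mmp12 mean of C1q macrophages exceeded that of monocytes by 1.85 to 2.47 and was above each other class in 6 of 6 sets.

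For Mmp13 the means of C1q macrophages were 1.78, 1.77, 1.85, 1.49, 1.92 and 1.53, and sets 4 and 6 were the lowest. The monocyte means of Mmp13 ran from 0.07 to 0.17 and those of hepatoma cells from 0.05 to 0.11. Dendritic cells were above monocytes in set 5 (0.16 against 0.07), and neutrophils in set 6 (0.31 against 0.10). The macrophage mean was above that of each other class in 6 of 6 sets, by 1.37 to 1.85 over monocytes.

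For Mmp9 the neutrophil means were 0.69, 1.08, 0.39, 0.80, 0.76 and 0.47, highest in set 2 and lowest in set 3. The Mmp9 means of C1q macrophages were 0.06 to 0.09, and no set of neutrophils overlapped them. C1q macrophages lay below neutrophils by 0.31 to 1.02 in 6 of 6 sets; their mean was above that of fibroblasts in 4 of 6 sets and above those of monocytes, dendritic cells and hepatoma cells in 6 of 6. A further step had altered the values outside set 1, so the size of these differences may depend on it.

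**Figure D2:**
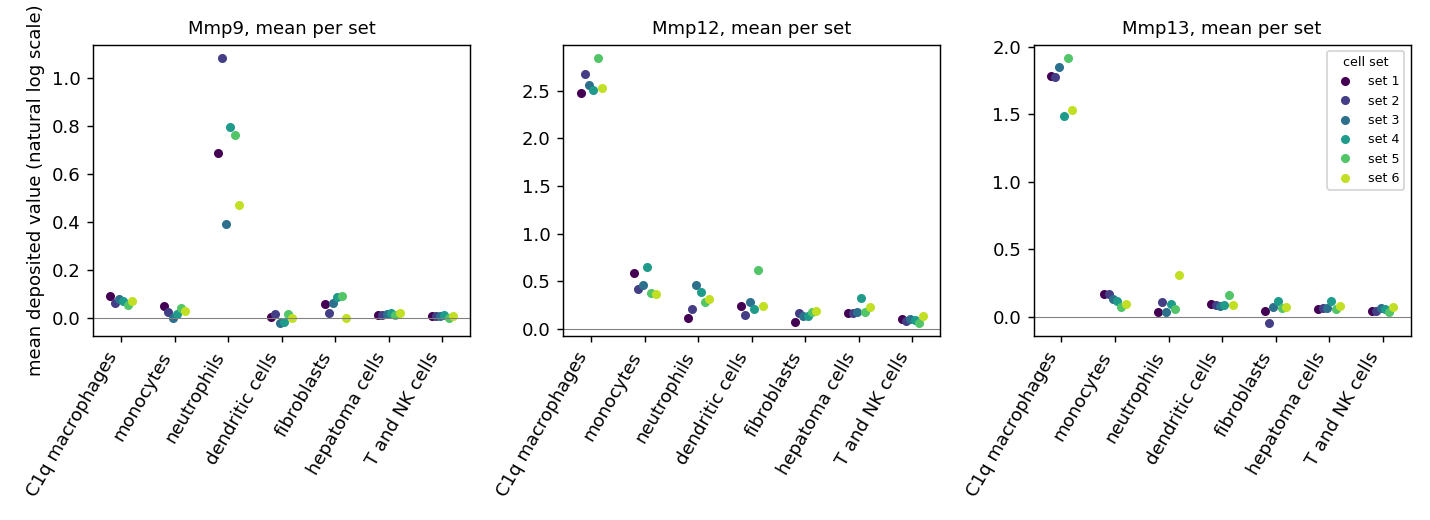
Mean deposited value (natural log scale) of each gene in each gated class, 1 point per cell set. For Mmp12 and Mmp13 the 6 macrophage points lie above all other classes, between 2.48 and 2.84 and between 1.49 and 1.92, and for Mmp9 the 6 neutrophil points, 0.39 to 1.08, lie above all other classes.

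Within the C1q macrophages of set 1, Mmp12 and Mmp13 were detected in the same cells. Of 643 cells, 349 had a UMI of both, 113 of Mmp12 without Mmp13, 50 of Mmp13 without Mmp12, and 131 of neither. A Mmp13 UMI was found in 75.5% of cells with Mmp12 and in 27.6% of cells without. The odds ratio was 8.06 [5.39 to 12.2], with an exact conditional interval for counting error only. It was 5.04 [3.5 to 7.32] after thinning, 10.9 [5.90 to 21.0] below the median depth and 6.31 [3.60 to 11.3] at or above it.

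The relation was graded. Mmp13 was at 394 CPM in the 181 macrophages without a Mmp12 UMI, 772 CPM in the 96 cells with 1 to 2, 1268 CPM in the 127 cells with 3 to 9, 1691 CPM in the 146 cells with 10 to 29 and 3535 CPM in the 93 cells with 30 or more. The share of cells with a Mmp13 UMI rose in the same steps, from 27.6% through 53.1%, 74.0% and 81.5% to 91.4%. The median depth of these cells was 2632, 2429.5, 1862, 3156 and 4357 UMIs, so the last steps went with deeper cells. Pearson's r of the deposited values over macrophages was 0.56 in set 1 and 0.46 to 0.66 in sets 2 to 6. Cells of a set cannot be taken as independent, and whether a set is a library is not given in the sources used here.

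**Figure D3:**
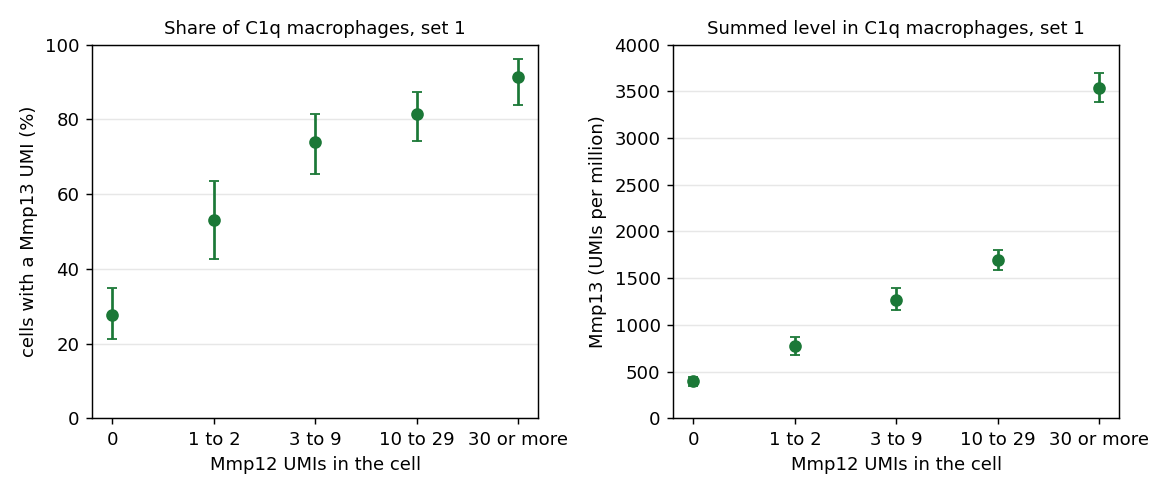
Share of C1q macrophages of set 1 with a Mmp13 UMI (left, Clopper-Pearson 95% intervals) and the Mmp13 level in CPM (right, exact Poisson 95% intervals), by the number of Mmp12 UMIs in the cell. The share goes from 27.6% to 91.4% and the level from 394 to 3535 CPM.

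Mmp9 showed no such link that could be resolved. Of the 24 Mmp9-positive macrophages, 17 had Mmp12 and 18 had Mmp13. The odds ratio was 0.95 [0.366 to 2.76] with Mmp12 and 1.87 [0.699 to 5.85] with Mmp13, and both intervals include 1. Over the 3 genes together, 335 macrophages (52.1%) had Mmp12 and Mmp13 without Mmp9, 128 (19.9%) had none, 110 had Mmp12 alone, 46 had Mmp13 alone, 14 (2.18%) had all 3, and 3 had Mmp9 alone. Pearson's r of Mmp9 with either gene lay between -0.01 and 0.15 over the sets, which in sparse counts is no finding.

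Macrophages were next split by genes that mark macrophage states, each cell counted as positive with a value above 1. Arg1, arginase 1, which breaks down arginine, was positive in 154 of 643 cells. Mmp12 was at 9342 CPM with Arg1 and 2612 CPM without, a ratio of 3.58 [3.44 to 3.72]. Mmp13 was at 3274 and 1135 CPM, a ratio of 2.88 [2.71 to 3.07]. Mmp9 was at 283 and 49.0 CPM, a ratio of 5.77 [4.45 to 7.52], from 13 and 11 positive cells. All 3 members were at least 2-fold higher with Arg1, as were 7.93% of the 1123 genes compared, and the mean value of each was higher with Arg1 in 6 of 6 sets. For Mmp9 the ratio depended on few cells and was 28.9 [14.4 to 66.0] without the 5 richest.

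Gpnmb, a glycoprotein of lipid-laden macrophages, was positive in 88 cells, which were deeper than the others (median 3412.5 UMIs against 2704). Its transcripts were also found in 65.4% of the 6694 hepatoma-class cells with fewer than 5 Mmp12 UMIs, at 120 CPM. The part of free RNA in the Gpnmb split was not tested. Mmp12 was 2.72-fold and Mmp13 2.06-fold higher with Gpnmb, and Mmp9 5.59-fold, so all 3 passed the 2-fold mark, against 7.93% of genes. The Mmp12 mean was higher in 6 of 6 sets, that of Mmp13 in 5 and that of Mmp9 in 4, and the ratio for Mmp13 was 1.51 and for Mmp9 2.41 without the 5 richest cells of each gene. With Spp1, osteopontin, a secreted matrix protein, Mmp12 passed the mark at 2.41-fold [2.32 to 2.51], or 1 of 3 members, against 6.14% of genes; without its 5 richest cells the ratio was 1.89. The ratio with Spp1 was 1.83 for Mmp13 and 0.765 for Mmp9, the latter 2.02 without its 5 richest cells. Spp1 was at 260 CPM in C1q macrophages and highest in neutrophils, at 445 CPM [401 to 492]. It was at 192 CPM in monocytes, 171 CPM in hepatoma cells and 104 CPM in T and NK cells. The part of free RNA in the Spp1 split was not tested.

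Trem2, a lipid receptor of macrophages, gave results that depended on the measure. In its 33 positive cells Mmp12 was 1.81-fold higher by CPM, but a Mmp12 UMI was found in 45.5% of them against 73.3% of the other cells, and the mean value was lower in 5 of 6 sets. Of the 5 macrophages richest in Mmp12, 1 was Trem2-positive, and without these 5 the ratio was 1.09.

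Cxcl9, a chemokine that draws T cells and is induced by interferon gamma, was positive in 308 cells, and the 3 genes differed in their relation to it. Mmp9 was at 13.8 CPM with Cxcl9 and 200 CPM without, 14.5-fold [9.07 to 24.5] lower; it was the member of 3 that was at least 2-fold lower, against 10.5% of genes. Its mean was lower with Cxcl9 in 6 of 6 sets, by 0.01 to 0.13, and the ratio was 0.269 without its 5 richest cells. Mmp12 was at 3009 CPM with and 5283 CPM without, yet a UMI was found in 78.6% against 65.7% of cells and the mean was higher in 6 of 6 sets. Mmp13 behaved alike, at 1433 and 1781 CPM, with a UMI in 69.5% and 55.2% of cells. Cxcl9-positive cells were deeper, with a median of 3187.5 UMIs against 2525. After thinning, the shares with a UMI were 65.9% against 57.6% for Mmp12 and 54.5% against 42.7% for Mmp13. For both genes a larger share of Cxcl9-positive macrophages had the transcript, while 0 of the 5 richest cells of either gene were Cxcl9-positive. Without those 5 cells the CPM ratio was 0.717 [0.687 to 0.747] for Mmp12, against 0.570 with them, and 0.997 [0.933 to 1.07] for Mmp13, against 0.804.

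A combined split, chosen after these values were seen, separated Arg1 from Cxcl9. Mmp12 was at 10538 CPM in the 109 cells with Arg1 alone, 6203 CPM in the 45 with both, 2618 CPM in the 263 with Cxcl9 alone and 2601 CPM in the 226 with neither. Mmp13 was at 3388, 2975, 1244 and 962 CPM in the same order. Mmp9 was at 350, 106, 2.44 and 123 CPM. For Mmp12 and Mmp13 both groups with Arg1 were thus above both groups without it, and Cxcl9-positive cells without Arg1 had 3 Mmp9 UMIs.

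Mrc1, the mannose receptor, and Vcam1, an adhesion molecule, separated the members again. With Mrc1 (324 cells), Mmp9 was at 168 CPM against 14.8 CPM without, 11.4-fold [6.94 to 19.8] higher, the member of 3 past 2-fold, against 4.27% of genes; 20 of its 24 positive cells had Mrc1, and the ratio was 2.97 without the 5 richest. Its mean was higher with Mrc1 in 6 of 6 sets. Cells with Mrc1 were deeper, with a median of 3465.5 UMIs against 2158. After thinning, 4.63% of them and 0.627% of the other cells had a Mmp9 UMI. Mmp12 was lower with Mrc1 by CPM (0.789) and Mmp13 higher (1.37). With Vcam1 (419 cells), a Mmp13 UMI was found in 76.1% against 35.7% of cells and a Mmp12 UMI in 81.6% against 53.6%, and the mean values of both were higher in 6 of 6 sets, by 1.03 to 1.31 and 0.86 to 1.22. By CPM, Mmp13 was 1.40-fold [1.31 to 1.51] higher with Vcam1, but Mmp12 was slightly lower, at 3921 against 4327 CPM, a ratio of 0.906 [0.870 to 0.944]; without the 5 richest cells of each gene the ratios were 2.08 and 1.29. The ratio for Mmp9 was 1.39, and 0.299 without its 5 richest cells.

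Ccr2, the receptor that brings monocytes into tissue, marked macrophages with less of both. In its 114 positive cells Mmp13 was at 715 CPM against 1813 CPM, 2.54-fold [2.28 to 2.83] lower, and Mmp12 at 3073 against 4297 CPM, 1.40-fold [1.32 to 1.48] lower, and both means were lower in 6 of 6 sets. Positive cells were the deeper ones here, with a median of 3584.5 UMIs against 2592. The share of all genes at least 2-fold lower with Ccr2 was not computed. In the 78 cells with Mki67, a proliferation gene, the ratio was 0.839 for Mmp12 and 0.981 for Mmp13. Mmp9 had 4 UMIs with Mki67 and 248 without, a ratio of 0.0920 [0.0249 to 0.238], and 0.309 without its 5 richest cells. The shares of cells with a Mmp9 UMI were closer, 2 of 78 (2.56%) against 22 of 565 (3.89%). The Mmp9 mean was higher with Mki67 in 1 of 6 sets. Cd163 was positive in 7 cells, too few to describe.

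**Figure D4:**
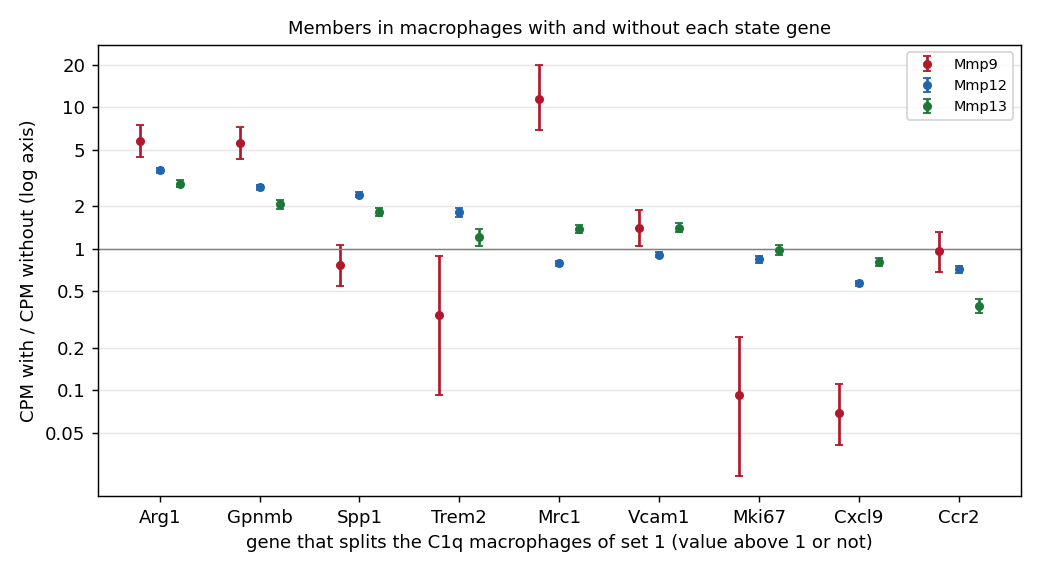
CPM of each member in C1q macrophages of set 1 with a given state gene, divided by the CPM in those without it (log axis), with exact conditional 95% intervals for counting error. All 3 lie above 2 for Arg1 and Gpnmb, Mmp9 is at 11.4 for Mrc1 and 0.0690 for Cxcl9, and Mmp13 is lowest for Ccr2 at 0.394.

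The genes most like each member over the macrophages were ranked by Pearson's r in set 1, among those with a UMI in at least 5% of the cells. For Mmp12, Mmp13 led 769 ranked genes with 0.56, followed by Slc7a2, an arginine transporter, with 0.39, Basp1 with 0.34, the eosinophil chemokine Ccl24 with 0.34, and Arg1 with 0.29. In sets 2 to 6 Slc7a2 had 0.35 to 0.43, Ccl24 0.38 to 0.51 and Arg1 0.22 to 0.30. For Mmp13, Mmp12 led, followed by Slc7a2 with 0.38, the lysosomal protease gene Lgmn with 0.38, Vcam1 with 0.36 and Ccl24 with 0.33. The lowest values with Mmp12 were those of Ms4a6b (-0.34), Ms4a6c (-0.34) and Stab1, a scavenger receptor (-0.32), and with Mmp13 those of Alox5ap, of leukotriene synthesis (-0.32), and S100a4 (-0.29). For Mmp9 the highest were Arg1 with 0.19 and Fabp4, a fatty acid carrier, with 0.17, then Cd93 with 0.15, Adam8 with 0.15 and Mrc1 with 0.14, and the lowest was the MHC class II gene H2-Ab1 with -0.15. These Mmp9 values are weak and rest on 24 positive cells.

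In neutrophils Mmp9 was higher in cells with Cxcr2, Il1r2 or Csf3r. These splits were chosen after values were seen, and all 5 use genes that also served in the gate. The share of all genes at least 2-fold higher was not computed for them, so how unusual the ratios are cannot be judged. Mmp9 was at 366 CPM in the 64 cells with Cxcr2, the chemokine receptor of mature neutrophils, and 45.8 CPM in the 88 without, 8.0-fold [5.15 to 12.7] higher. The ratio was 5.03 [3.24 to 7.98] for Il1r2, a decoy receptor for interleukin-1, and 3.93 [2.57 to 6.09] for Csf3r, the G-CSF receptor. The ratios for Cxcr2, Il1r2 and Csf3r were 5.49, 3.91 and 5.91 without the 5 neutrophils richest in Mmp9. For S100a8, an abundant calcium-binding protein, the ratio was 1.55 [1.01 to 2.43], and 1.0 [0.606 to 1.67] without those 5 cells. For Retnlg, a secreted protein of neutrophils positive in 18 cells, it was 1.86 [0.895 to 3.49], an interval that includes 1. Without those 5 cells the Retnlg ratio was 2.78 [1.31 to 5.35]. The mean was higher with each of these 5 genes in 6 of 6 sets. Cells without Cxcr2 were deeper (median 3910 UMIs against 1272), and the Mmp9 level of the class is an average over both kinds. The highest r with Mmp9 over 152 neutrophils was that of G0s2 and Clec5a, a myeloid lectin, both 0.47, and in sets 2 to 6 these had 0.33 to 0.44 and 0.19 to 0.31. G0s2 also served in the gate, so its r was taken over cells partly chosen by it.

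Of the 41 dendritic cells of set 1, 20 had Xcr1 or Clec9a, genes of cross-presenting cells. Ccr7 or Fscn1, genes of migrating cells, were found in 20, and Cd209a in 1. These groups overlapped and did not cover the class, which had 15 Mmp12 UMIs, 10 of them in 1 cell outside the groups. Cells with Xcr1 or Clec9a had 3 Mmp12, 2 Mmp13 and 0 Mmp9 UMIs in 20 cells. The 0 allows a share of cells with a UMI of up to 15.0%, counting error only, and sets no limit on cells that express the gene. Cells with Ccr7 or Fscn1 had 2 Mmp12, 1 Mmp13 and 1 Mmp9 UMIs. At these counts no difference between dendritic states was detectable.

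Mmp12 in the hepatoma class was concentrated in its shallow cells. It was at 1285 CPM in the 451 cells below 2500 UMIs, 637 CPM in the 349 cells from 2500 to below 5000, 46.4 CPM in the 1324 cells from 5000 to below 10000, 19.4 CPM in the 1758 cells from 10000 to below 20000 and 13.01 CPM in the 2893 cells with 20000 or more. The level in C1q macrophages moved far less with depth, from 5684 CPM below 2500 UMIs through 4065 to 3521 CPM at 5000 or more. A set of 81 hepatoma-class cells with 5 or more Mmp12 UMIs, a threshold set after values were seen, held 51.2% of the Mmp12 of the class. Their median depth was 2260 UMIs, and they had 738 CPM of C1qa, 467 CPM of Arg1, 164 CPM of Ptprc and 2688 CPM of Alb. The other 6694 cells had 16.5 CPM of C1qa, 2.00 CPM of Arg1, 8.38 CPM of Ptprc and 3533 CPM of Alb. C1qb was at 24.3 CPM in the 81 cells and 3.30 CPM in the others, and C1qc at 4.05 and 2.92 CPM. A C1qc UMI was found in 2.47% of the 81 cells and 6.15% of the others, and a Cd74 UMI in 58.0% and 83.0%. Cells with at least 2 C1q genes above a value of 1 could not enter this class, so its C1q levels are limited by the gate. Against the hepatoma-class cells with at least 5000 UMIs alone, the log2 ratio of Mmp12 in all C1q macrophages was 7.86, and against all cells of the class it was 7.15.

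**Figure D5:**
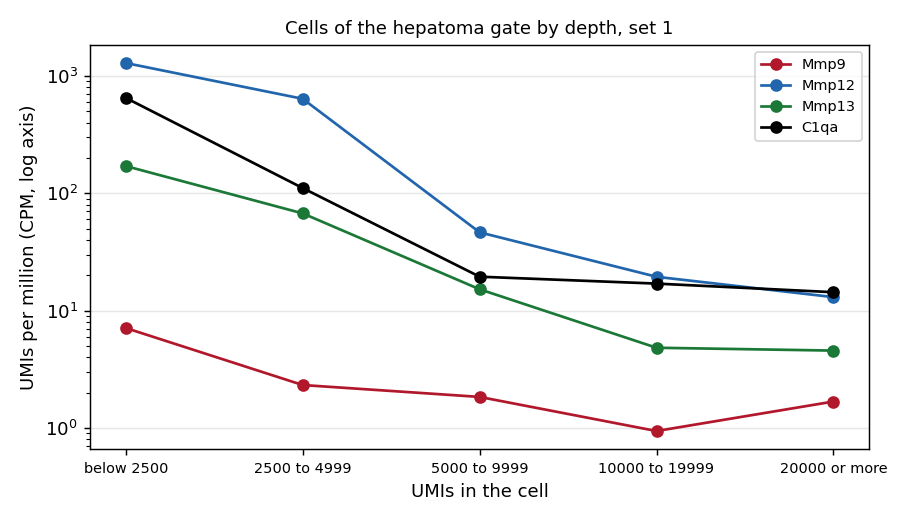
Levels in CPM (log axis) of the 3 members and of C1qa in cells of the hepatoma class of set 1, by the UMIs in the cell. Mmp12 goes from 1285 CPM in the shallowest cells to 13.01 CPM in the deepest.

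Mmp12 was set against C1qa in each class of set 1. The number of Mmp12 UMIs per C1qa UMI was 0.762 in C1q macrophages, 1.43 in T and NK cells, 1.46 in hepatoma cells, 1.67 in both neutrophils and dendritic cells, and 5.67 in monocytes; fibroblasts had 14.2 CPM of Mmp12 and 22.7 CPM of C1qa. C1qa was a gate gene of the macrophages and its absence shaped the other classes, so these ratios are a description. The part of free RNA in the low levels of the other classes was not tested.

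Many other genes of the metalloproteinase system were highest in fibroblasts. Of 63 listed proteases, inhibitors, activators and substrates, 39 were in the table, and 29 of these had their highest level in fibroblasts, 3 in monocytes, 2 each in C1q macrophages, neutrophils and dendritic cells, and 1 in hepatoma cells. That is 74.4% in fibroblasts, against 23.9% of all 1967 genes with at least 10 UMIs over the classes; without the 13 matrix substrates, several of which gated the fibroblasts, it was 16 of 26, or 61.5%. A highest class can rest on few UMIs. Plg, plasminogen, was highest in monocytes on 5 UMIs, at 16.0 CPM [5.19 to 37.3], an interval that includes the 7.41 CPM of hepatoma cells. Of the 11 proteases, 7 were highest in fibroblasts, among them Adamts1 at 366 CPM [323 to 414] and Adamts2, which trims procollagen, at 365 CPM [322 to 412], Adamts5, an aggrecan-cleaving protease, at 280 CPM, and Mmp2, gelatinase A, at 265 CPM. Adam8, a membrane protease of leukocytes, was at 381 CPM [307 to 468] in dendritic cells, an interval that overlaps those of Adamts1 and Adamts2 in fibroblasts, and at 96.7 CPM in C1q macrophages.

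The chromosome 9 neighbours of Mmp12 and Mmp13 had other patterns. Mmp3, stromelysin-1, was at 61.0 CPM in fibroblasts, with 0 UMIs in C1q macrophages. Mmp8, neutrophil collagenase, was at 99.2 CPM in monocytes, 27.1 CPM in C1q macrophages and 10.5 CPM in neutrophils. Mmp7, matrilysin, was highest in hepatoma cells at 2.28 CPM. None of these 3 neighbours was highest in C1q macrophages.

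All 6 inhibitors in the table were highest in fibroblasts. Timp1 was at 703 CPM in fibroblasts and 9.04 CPM in C1q macrophages, Timp2 at 742 and 175 CPM, and Timp3 at 498 and 25.5 CPM. Among the 9 activators and partners, Ctsb, the lysosomal protease cathepsin B, was at 2554 CPM in C1q macrophages against 982 CPM in monocytes, and Plau, urokinase, which activates plasminogen, at 68.0 against 19.2 CPM; both were highest in C1q macrophages. Lcn2, lipocalin-2, which binds Mmp9 protein, was highest in neutrophils at 121 CPM. All 13 matrix substrates were highest in fibroblasts, which were gated by several of them, led by the collagen gene Col1a2 at 9386 CPM; the elastin gene Eln was at 697 CPM there and 0.393 CPM in C1q macrophages.

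Of 24 of these genes with 10 or more UMIs over C1q macrophages and monocytes, 7 were at least 2-fold higher in macrophages, 2 at least 2-fold lower and 15 in between. These are 29.2% higher and 8.33% lower, against 26.3% and 15.0% of all 1161 genes compared. The median log2 ratio of the 24 was 0.32, against 0.26 over all genes compared, while those of Mmp9, Mmp12 and Mmp13 were 3.24, 3.05 and 3.17.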

How the data were processed

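Per the series' design text, droplet 3′ libraries were made on the DNBelab C4 platform, reads were aligned to GRCh38, UMIs were counted with PISA and cells were called by barcodeRanks of DropletUtils; per the submitters' processing notes, STAR 2.7.2b was used and the builds GRCh38 and mm10 are named. The symbols are those of mouse genes, and which build underlies the table is not given in the sources used here. The authors deposited 1 table of natural log values. All 53528 columns match no sample in the labels and were used as 1 pooled sample. In set 1 the values are the natural log of 1 plus UMIs per 10000, and UMIs were recovered in 100% of cells (totals whole within 1e-06, counts within 0.01). In sets 2 to 6 all cells have values below 0, from a step that no source used here records. The cell names without the set number are running numbers, 12741 of 22421 of which occur in more than 1 set, so shared barcodes could not be counted.

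Scrublet (scanpy 1.11.5, expected rate 6%) called 91 of 9370 set 1 cells as doublets (0.971%); these were left out of set 1 levels and kept in means per set. Plac8, Cd3e and Zbtb46, listed as markers, were not analysed here. Ratios with their intervals, thinning to 1000 UMIs and co-detection were computed with scipy 1.17.1, and the scripts were tested on simulated data. Calls used genes with at least 10 UMIs over the classes compared. Shares of genes highest in fibroblasts, and folds after thinning or without the richest cells, were added after values were seen.

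The members, markers and gene lists were chosen with earlier results of these data known. The gates were changed after their sizes and the members' values under the first rule had been seen: as first written, a cell meeting the hepatoma criterion and another was left out, which kept 43 C1q macrophages, 8 monocytes, 16 neutrophils, 5 dendritic cells and 2 fibroblasts in set 1. Genes named are the 3 members, the most abundant listed gene of each role, and for each member the 5 genes with the highest r. The named inhibitor of that rule is not reported here. The lowest r, the other genes of the list given with values, the neutrophil splits and the Arg1 by Cxcl9 split were chosen after values were seen. Alternatives changed the marker threshold, number of markers, treatment of cells in several gates, doublets, depth, pseudocount and averaging.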

Additional observations from a re-analysis of the deposited data

Results flagged for a closer look

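Of 21 groups of 6 set means (3 genes in 7 classes), 3 had a highest set that stood apart from the others by a gap large against the range, where chance gives about 1 in 20. The Mmp12 mean in dendritic cells was 0.62 in set 5, and the next set had 0.28. The Mmp13 mean in dendritic cells was 0.16 in set 5, and the next had 0.10. The Mmp13 mean in neutrophils was 0.31 in set 6, and the next had 0.11. All 3 lie far below the means of C1q macrophages, and no UMI counts were recovered in these sets. Both dendritic cell means come from the same 57 cells of set 5, and the neutrophil mean from 82 cells of set 6. The groups are therefore not independent, and the 3 cannot be set against 1 in 20 as separate cases.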

How the results depend on the processing

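The values here are log2 ratios of C1q macrophages over another class, or log2 odds ratios, in set 1. Of 163 alternative values, 109 lay within the interval of the reported value, 54 outside, and 0 called values changed sign. For Mmp9 over neutrophils, whose interval includes 0 (-0.19), the value was 0.60 with a marker threshold of 0.5, -1.61 with a threshold of 2, -1.27 with at least 3 markers, -2.26 after thinning, -2.08 as a mean over cells and -1.86 without the 5 richest macrophages, so neither direction held throughout; the cause was not tested.

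With a marker threshold of 0.5, Mmp12 moved to 3.81 over monocytes, 3.87 over dendritic cells and 7.02 over hepatoma cells, and Mmp13 to 4.13 over monocytes and 7.59 over hepatoma cells. With a threshold of 2, Mmp12 moved to 4.10 over monocytes, 7.29 over neutrophils and 6.48 over hepatoma cells, and Mmp13 to 5.32 over monocytes and 7.11 over hepatoma cells. With at least 3 markers, Mmp12 moved to 7.72 over neutrophils, 7.61 over dendritic cells and 6.56 over hepatoma cells, and Mmp13 to 2.43 over monocytes and 7.37 over hepatoma cells. After thinning, Mmp9 moved to 1.14 over monocytes and 4.62 over hepatoma cells, Mmp12 to 3.31, 4.27 and 5.08 over monocytes, dendritic cells and hepatoma cells, Mmp13 to 3.94, 6.51 and 6.31 over monocytes, neutrophils and hepatoma cells, and the co-detection of Mmp12 and Mmp13 from 3.01 to 2.33. As means over cells, Mmp9 moved to 1.67 over monocytes and 4.80 over hepatoma cells, Mmp12 to 3.41, 4.33 and 5.06 over monocytes, dendritic cells and hepatoma cells, and Mmp13 to 3.71 and 6.34 over monocytes and hepatoma cells.

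Without the 5 macrophages richest in the gene, Mmp9 moved to 1.57, 1.53 and 3.60 over monocytes, fibroblasts and hepatoma cells, and Mmp12 and Mmp13 to 6.95 and 7.56 over hepatoma cells. With a pseudocount of 0.1 CPM, Mmp9 and Mmp13 moved to 5.87 and 7.89 over hepatoma cells. With at least 6 hepatoma markers the ratios over hepatoma cells were 5.80, 7.99 and 8.09 for Mmp9, Mmp12 and Mmp13, and for hepatoma cells with at least 5000 UMIs 7.86 for Mmp12 and 7.97 for Mmp13. Mmp12 over hepatoma cells was 7.08 with cells of several gates put in the best gate and 7.09 with doublets kept. Under the gates as first written it was 7.03, and the co-detection of Mmp12 and Mmp13 was 4.56; ratios over the 4 other classes, with under 20 cells each, and all values of Mmp9 could not be given. The co-detection of Mmp9 and Mmp12 was 1.94 below the median depth. The place of the hepatoma gate, both hepatoma settings and the setting without the richest macrophages were chosen after seeing the data.

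A class under 20 cells, or a gene with 0 UMIs in a class, gave no value, as with a threshold of 2 for dendritic cells and thinned Mmp9 in dendritic cells and Mmp13 in fibroblasts. Mmp9 rests on 3 monocyte UMIs, 1 dendritic cell UMI and 7 fibroblast UMIs, and Mmp13 on 3 to 7 in dendritic cells, neutrophils and fibroblasts, so these ratios are known only within wide intervals. No paired analysis was possible because the columns carry no sample and no result comes from a test.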
